A study of Drosophila melanogaster with 3 samples.

Results

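The heat-inducible chaperone genes of Drosophila melanogaster were examined in a ChIP-seq profile of the coactivator Yorkie (Yki) in S2 cells. The 9 genes were taken by position, as 3 windows of the dm3 build: 87A on 3R (7775000 to 7792000, Hsp70Aa and Hsp70Ab), 87C on 3R (8285000 to 8340000, Hsp70Ba, Hsp70Bb and Hsp70Bc) and 67B on 3L (9360000 to 9395000, Hsp22, Hsp23, Hsp26 and Hsp27). Of the 3990 intervals in the authors' list of Yki binding, 5 had their midpoint in these windows: 4 in 67B, 1 in 87A and 0 in 87C. The series holds 2 ChIP libraries made with an anti-Yki antibody and 1 input library with no antibody, all from S2, a cultured embryo-derived line. The labels give no treatment, and none names a heat shock. Titles, source names and antibody entries name Yki or input in S2. Their descriptions disagree: those of the ChIP pair speak of GAF ChIP in embryos, and that of the input speaks of Yki ChIP in embryos. Which of these labels is right was not tested. GAF (GAGA factor) is itself a known binder of heat shock promoters, so the doubt bears on every value here.

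Heat shock genes are a textbook case of promoter-proximal pausing. RNA polymerase II starts transcription, stops just downstream of the start site, and is released when heat shock factor binds upstream. Hsp70 is an ATP-dependent chaperone that refolds damaged proteins, and its genes lie as near-identical copies at 87A and 87C. The small heat shock proteins of 67B hold unfolding proteins without using ATP: Hsp22 acts in mitochondria, Hsp23 and Hsp26 in the cytosol, and Hsp27 in the nucleus. Yki is the growth-promoting coactivator that the Hippo pathway restrains, and it reaches DNA through partner proteins. Polymerase was not measured in this series, so the paused state of these promoters was not checked.

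Binding was read from a deposited density with 1 value every 100 bp, smoothed and with background subtracted. Both ChIP libraries appear to be joined in it. Replicate error is therefore missing from every value, and no test between libraries could be made. Short bumps standing alone between stretches at 0 most often had a sum of 4.98 when above 0 and -1.80 when below 0. The first kind reached 1.00 at its centre, and was taken as a single ChIP tag. The second was taken as a single input tag, with a weight of 0.36. Density is given in these ChIP tag equivalents. A height in them has a counting variance of at least the height divided by the square root of 2 (for a depth below 0, multiplied by 0.36). The counting SDs below come from that lower limit and cover counting error only. No gene positions of dm3 were used here, so no feature is placed at a gene, promoter or exon. In the RefSeq gene table of release 6, matched by symbol, all 9 genes were found. That table orders the 87C genes as Hsp70Ba, the noncoding alphagamma element, Hsp70Bbb (a further Hsp70 copy), Hsp70Bb and Hsp70Bc, with a pseudogene between neighbours of the last 3. At 67B the order was Hsp22, CG4461, Hsp26, Hsp67Ba, an antisense RNA, Hsp23 and Hsp27.

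Density was highest in the window of the small heat shock genes. In 67B it rose to 680 (counting SD at least 21.9). In 87A it reached 191 (at least 11.6), and in 87C 87.5 (at least 7.86). The share of samples within 0.001 of 0 ran the other way, at 57.5% in 87C, 12.9% in 87A and 5.14% in 67B. For comparison, 2.09% of samples on 3R and 3.52% of samples on 3L were that close to 0.

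**Figure D1:**
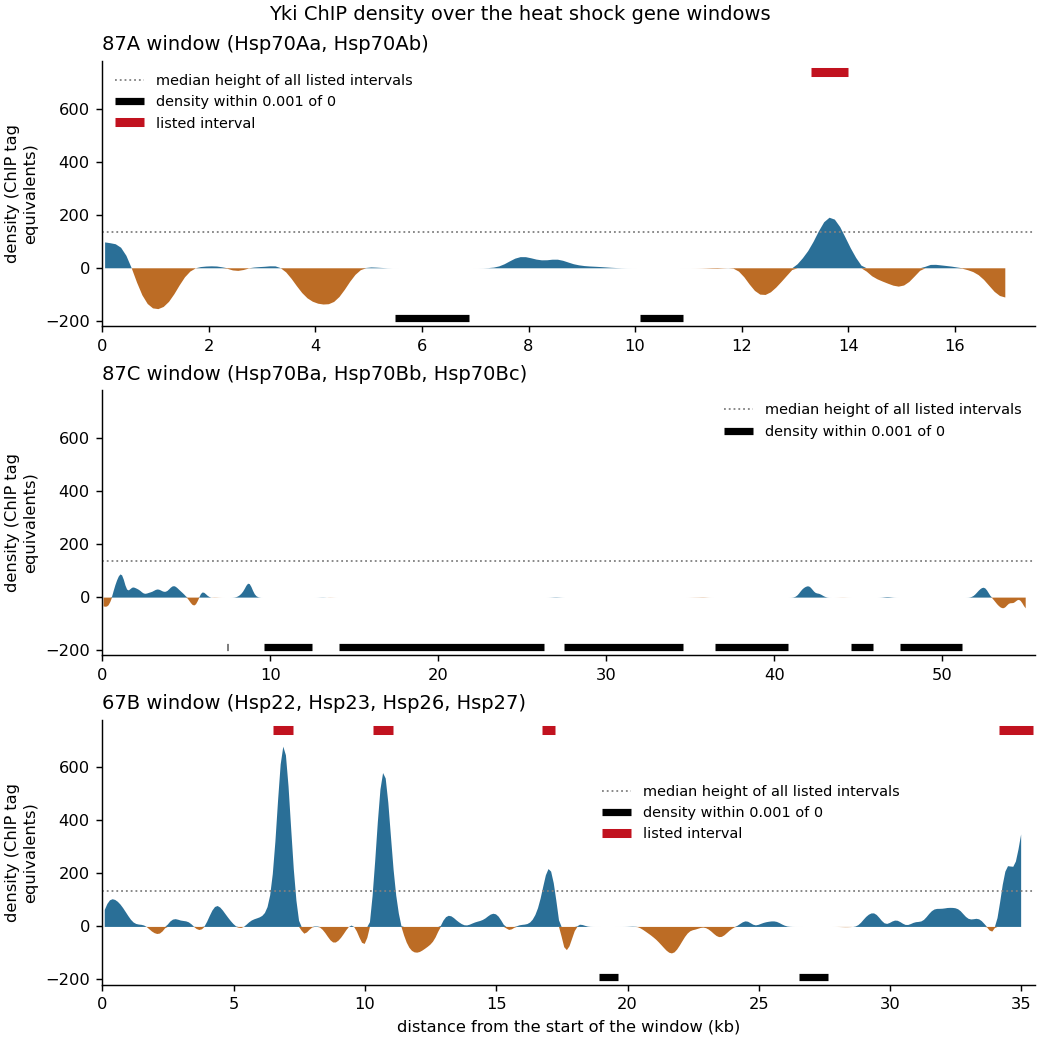
Density along the 3 windows (y, ChIP tag equivalents, blue above 0 and brown below) against distance from the window start (x, kb), with listed intervals as red bars, stretches within 0.001 of 0 as black bars and the median height of all listed intervals as a dotted line. Red bars mark 4 intervals in 67B, 1 in 87A and none in 87C, where black bars fill 57.5% of the window.

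At 67B, home of Hsp22, Hsp23, Hsp26 and Hsp27, 4 listed intervals lay in 35 kb. When the 5 large chromosome arms were tiled with windows of 35 kb, 45.8% of the 3390 tiles held at least 1 interval and 315 (9.29%) held 4 or more. The highest density in the window was matched or passed in 117 tiles (3.45%), among them 30 of the 697 on 3L. Of the 350 samples in the window, 30 (8.57%) were at or above 135, the median height of all listed intervals, against 1.39% of the samples on 3L. Only 2 of the 30 lay outside the listed intervals. The median density of 67B was 8.07, and 23.6% of tiles had a median as high.

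The first 67B interval, at 9366508 to 9367263, was the highest of the heat shock windows. From sample to sample its density ran 323, 476, 613, 680, 648, 530 and 371. It rose and fell on both sides of 1 centre at 9366869. Its height ranked 152 in the whole list and 38 among the 860 intervals of 3L, so that 96.2% of the listed intervals were lower. The mean inside was 520, against 53.03 in the flanks 2 to 5 kb away, which overlap the second interval, a difference of 467. Over the whole list this difference had a median of 107 and quartiles of 64.9 and 175.

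The second interval, at 9370306 to 9371074, had nearly the same form. Its samples ran 249, 395, 519, 581, 560, 468, 341 and 216. The highest of them lay 3.8 kb from that of the first interval, and between both the density fell to -64.2. The mean inside was 416, against 85.2 in the flanks 2 to 5 kb away, which overlap the first interval, a difference of 331. With flanks 5 to 10 kb away, which overlap the third interval, that difference was 395. The height of the second interval (counting SD at least 20.3) ranked 228 in the list. The first exceeded it by more than these counting SDs, with no replicate to set the difference against.

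The third interval, at 9376749 to 9377252, was lower and narrower. Its 5 samples ran 152, 195, 218, 209 and 165, and its highest lay 6.3 kb beyond that of the second. Its flanks averaged -23.3, so the difference of 211 between interval and flanks exceeded the interval's own mean of 188. With flanks 5 to 10 kb away, which overlap the first and second intervals, that difference was 129.

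The fourth interval, at 9394137 to 9395434, stood 18.1 kb farther along and had a shoulder. Its samples ran 93.4, 159, 209, 229, 228, 227, 247, 293, 349, 382, 366, 304 and 222. A shelf near 229 came first and the main summit 600 bp later. Its midpoint lay in the window, but 434 bp of it, with the summit of 382, lay past the window's edge. Inside the window its highest sample was 349.

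Between intervals 3 and 4 no maximum of the 67B density passed 71.9, at 9392269, and 8.88% of the samples there were at 50 or more, against 6.19% on 3L. The density fell to -100 (counting SD at least 5.06) at 9381669, the lowest point of the window, and was within 0.001 of 0 over 0.7 kb and 1.1 kb. The trough at 9371969, beside the second interval, reached -97.1. The highest maximum without a listed interval was 105 at 9360369, a height above that of 30.03% of the listed intervals. In the list the next intervals on either side of the window lay 2.21 kb before it, with a height of 157, and 20.95 kb after it, with a height of 125.

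**Figure D2:**
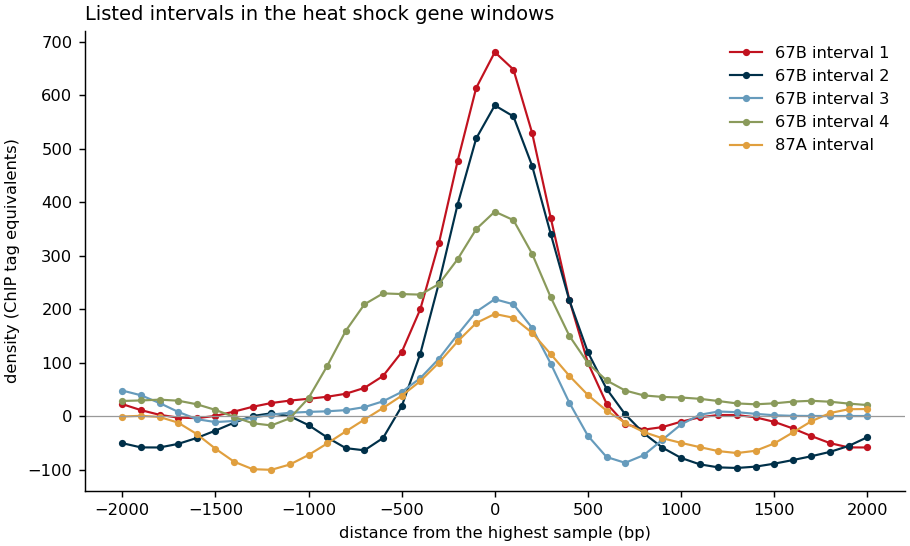
Density (y, ChIP tag equivalents) against distance from the highest sample (x, bp) for the 5 listed intervals of the heat shock windows, 1 point for each sample. Intervals 1 and 2 of 67B reach 680 and 581, interval 4 has a shoulder before its summit of 382, and interval 3 of 67B and the 87A interval reach 218 and 191.

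Apart from that of interval 4 of 67B, widths were not far above that of the smoothing. A single tag, on the scale above, was 468 bp wide at 0.5 times its height. The first 3 intervals of 67B measured 609, 612 and 579 bp at the same level, or 1.24 to 1.31 times the width of a single tag. The 87A interval measured 663 bp, 1.42 times a single tag. Interval 4 of 67B measured 1079 bp, 2.30 times a single tag, with its shelf included.

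At 87A, where Hsp70Aa and Hsp70Ab lie, the only listed interval was at 7788300 to 7789002. Its samples ran 99.7, 139, 174, 191, 184, 156 and 116. The height of 191 was above that of 67.7% of the list and ranked 349 among the 1008 intervals of 3R. The mean inside was 151 and the flanks averaged 3.74, a difference of 148. Of tiled windows of 17 kb, 29.4% held at least 1 interval and 14.2% reached a density as high, so neither the count nor the height was rare. Samples at or above 135 made up 2.94% of the window (5 of 170), against 1.42% on 3R.

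Troughs at 87A were nearly as deep as the interval was high. The density fell to -154 (counting SD at least 6.28) at 7776041, to -137 at 7779141 and to -101 at 7787441, the last 1.2 kb from the interval's summit. Samples at or below -50 made up 21.8% of the window, against 9.19% on 3R, and samples at or above 50 made up 7.65%, against 6.23% on 3R. Negative density means that weighted input exceeded ChIP. Of the tiled windows of the same length, 7.67% fell as low. Just past the window, 1.27 kb from its edge, stood a further listed interval with a height of 135.

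Stretches within 0.001 of 0, called stretches at 0 here, occurred in all 3 windows. Over a run of such samples neither ChIP nor input tags left more than a trace of density, so it says nothing of Yki in either direction. At 67B there were 2, given above, together 1.8 kb. At 87A there were also 2, of 1.4 kb and 0.8 kb, and 9.13% of tiles of that length had as large a share of samples near 0. At 87C there were 6 longer than 1 sample, together 31.5 kb, between 8294641 and 8336141. The longest, 12.2 kb from 8299141 to 8311241, was the second longest of the 183 on 3R. The next measured 7.1 kb, 4.3 kb, 3.7 kb, 2.9 kb and 1.3 kb. A further single sample, at 8292441, was a crossing from below to above 0 and no stretch without tags. None of the 504 tiles of 55 kb on 3R had as large a share of samples near 0 as 87C, and 10 of 2157 tiles on all 5 arms did (0.46%). Of the 333 samples on 3R with a density of exactly 0, 177 were in the 87C window. Short reads from near-identical copies are hard to place. What part that has in these stretches was not tested, since the files hold no reads.

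Islands of density stood between the stretches at 0. At 87A the island from 7781941 to 7785041 was above 0 in all of its 32 samples, with a maximum of 42.1 (counting SD at least 5.45) at 7782841 and a second of 32.4 at 7783541. Its net sum, with input already subtracted, equalled that of 95.8 ChIP tags. Such a sum is not a count of tags, since ChIP and input tags can cancel. It lay between the 2 stretches at 0 of that window. No listed interval covered it, and 42.1 is below the height of all but 1 of the 3990 listed intervals.

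At 87C, 2 islands had similar heights. The one from 8292541 to 8294541 reached 52.4 (counting SD at least 6.09) and was above 0 in every sample, with a net sum equal to that of 63.8 ChIP tags. On its left it was bounded only by the crossing at 8292441. The other, from 8325841 to 8329541, reached 42.4 (at least 5.48), and the net sum of its part above 0 equalled that of 81.7 ChIP tags. Its part below 0 had the net sum of 1.00 input tag. The heights of the 3 islands of 87A and 87C thus differed by little more than their counting SDs. Among 80 other islands of 2 to 4 kb between stretches at 0 on the 5 large arms, the highest density had a median of 7.87 and quartiles of 2.20 and 18.6, and 3.75% reached 42.1. The length range and the height of 42.1 were taken from these 3 islands after their values were seen, so the share is a description. With only stretches of at least 5 samples as bounds, the island of 52.4 was no longer enclosed, and 3 of 51 other islands (5.88%) reached 42.1.

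**Figure D3:**
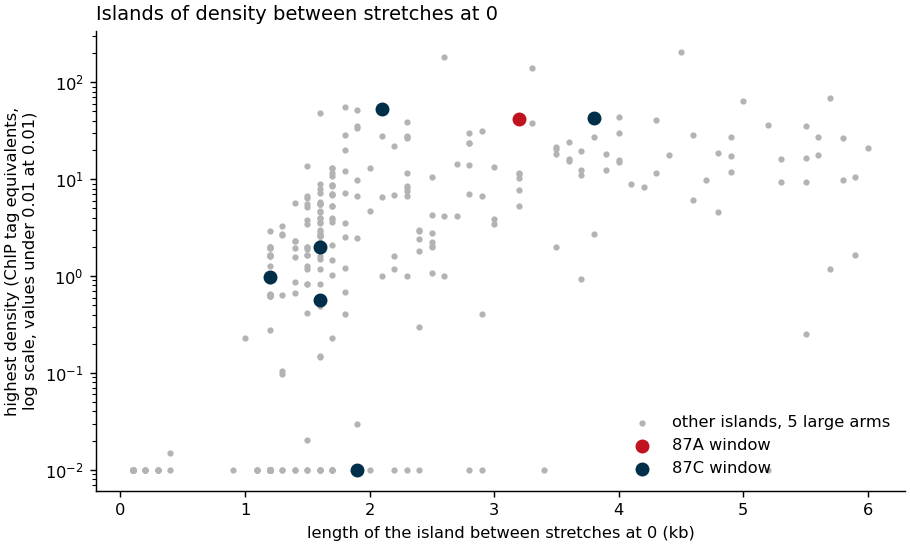
Highest density of each island up to 6 kb long between stretches at 0 (y, ChIP tag equivalents, log scale) against its length (x, kb), with islands of 87A in red, of 87C in dark blue and all others on the 5 large arms in grey. Values near or below 0 are drawn at a fixed low value. The 87A island and 2 of the 87C islands lie at 42.1 to 52.4, above most grey points of like length.

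The other 4 islands of 87C had small net sums. One from 8311341 to 8312441 summed to 1.00 ChIP tag and one from 8330941 to 8332441 to 2.01. That from 8319641 to 8321441 was below 0 throughout, with a net sum equal to that of 3.25 input tags, which is no whole number of tags. The last, from 8297541 to 8299041, had a net sum of 0.50, the balance of parts above and below 0. From 8294641 to 8336141, net density was therefore low outside the island that reached 42.4. How many tags of either kind cancelled in these islands cannot be read from net sums.

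**Figure D4:**
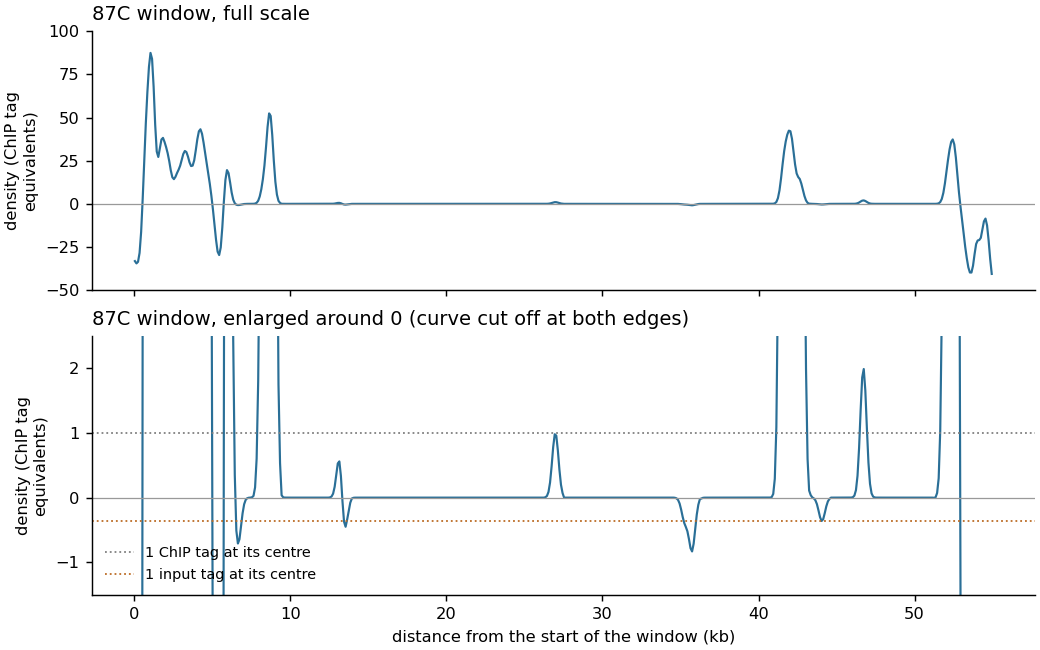
Density (y, ChIP tag equivalents) along the 87C window (x, kb from its start), at full scale above and enlarged around 0 below, where dotted lines give the centre height of 1 ChIP tag and of 1 input tag. The enlarged panel shows the curve flat at 0 for most of the window, with a bump of 1.00 ChIP tag between the 2 higher islands and one of 2.01 past the second of them.

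No interval was listed at 87C, the window of Hsp70Ba, Hsp70Bb and Hsp70Bc. Of tiled windows of 55 kb, 58.8% held at least 1 and 41.2% held none. However, 57.5% of the samples at 87C were near 0, against a median of 0% over these tiles. Runs of such samples say nothing of Yki. The shares of tiles for count, highest and lowest density thus set 87C against tiles that mostly had more readable length. Of the shorter tiles of 17 kb, 70.6% held none. Outside the stretches at 0 the window had 234 samples, with a median of 0.39. Its highest maximum, 87.5 at 8286041, was above the height of 16.4% of the listed intervals, and 59.9% of tiles reached as high. The next maxima were the island of 52.4, one of 43.2 at 8289241, the island of 42.4, one of 38.2 at 8286841 and one of 37.3 at 8337441. All 6 fell short of 135. The window fell no lower than -40.6, and 92.7% of tiles fell as low. In the list, the nearest intervals stood 9.24 kb before the window, with a height of 263, and 204 kb after it, with a height of 146.

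**Figure D5:**
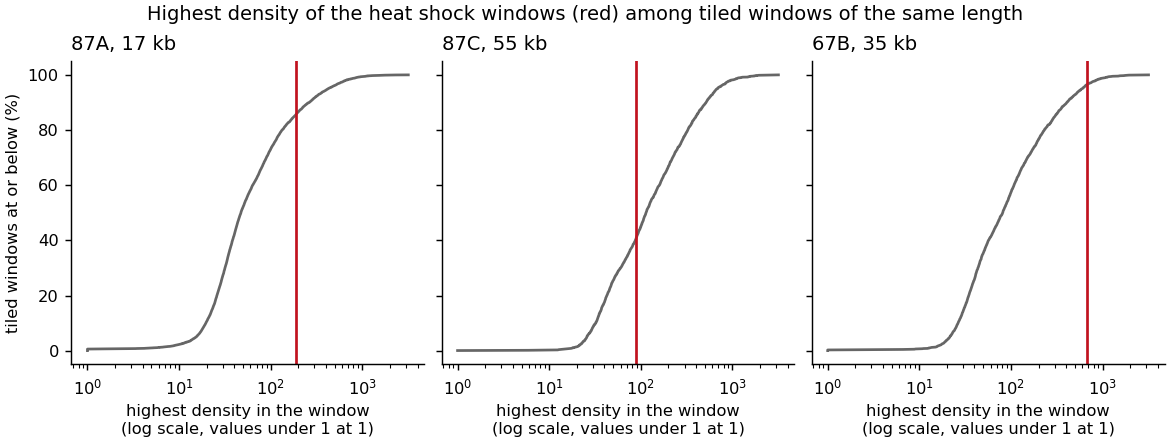
Share of tiled windows on the 5 large arms (y, %) whose highest density is at or below a value (x, ChIP tag equivalents, log scale), for the length of each heat shock window, with that window as a red line. The line of 67B, at 680, is passed by 3.45% of tiles, that of 87A, at 191, by 14.2%, and that of 87C, at 87.5, by 59.9%. Stretches that say nothing of Yki fill more of the 87C window than of most tiles, so 59.9% does not compare equal readable lengths.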

How the data were processed

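Chromatin from formaldehyde-fixed S2 cells was sequenced after Nextera tagmentation, per the labels' protocols. Tools named in the submitters' processing notes are Bowtie, BWA and CASAVA 1.7.0, on dm3, with no step given for any; no source used here names the peak caller. The deposited files were intervals (start and end only) and a density score, 1 value every 100 bp, smoothed and background-subtracted per the file headers. The header joins 2 library codes with 1 input code that match no sample label, so the score was taken as pooled. Depth per library is unknown.

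Starts were raised by 1, a sample was placed by its centre, and an interval belonged to a window by its midpoint. Tiles covered 2L, 2R, 3L, 3R and X from the first sample of each arm, without those that overlap the 3 windows. Neighbouring samples share smoothed tags, so shares of samples have no interval. Python 3.11.15, numpy 2.4.6, pandas 2.3.3 and scipy 1.17.1 were used. Tag sums, the interval count, places of maxima and widths were tested on simulated data, and the other measures were not. Every interval in the windows is described, with the highest maxima, lowest points and stretches at 0. The members and lists were chosen with earlier results of these data known. Hsp and cofactor genes elsewhere were not analysed, for want of dm3 gene positions, and no sequence is shown for want of the dm3 genome.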

Additional observations from a re-analysis of the deposited data

How the results depend on the processing

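Of 53 values under other settings, 34 stayed within counting error or 1.5 times a count, and 19 moved. Some of the 34 could not move. The 87C window held no listed interval to filter or join, and 87A and 67B held no sample at exactly 0. Every listed interval in the windows was already higher than 135, so a filter at that height removed none. Widening the windows by 5 kb gave 2 intervals at 87A. Counting samples of at most 0.5 in size as 0, in place of exactly 0 (32.2% at 87C, 0% in the other windows), gave 71.6% at 87C, 22.4% (22.35) at 87A and 10.9% at 67B; the limit of 0.001, chosen after seeing the data, gave 57.5%, 12.9% and 5.14%. A density of 50 in place of 135 gave shares of 1.27% at 87C, 7.65% at 87A and 19.7% at 67B. A running mean over 5 samples lowered the 67B maximum to 589. With flanks 5 to 10 kb away the difference was 170 (169.9) at 87A and 395 and 129 for 67B intervals 2 and 3. With the highest density inside it was 187 at 87A and 627, 495, 242 and 368 for the 4 intervals of 67B. Looser limits can only raise a share and highest values only exceed means; elsewhere the cause was not tested. Window medians stayed within 0.001 of 0 at 87A and 87C, and at 67B went from 8.07 to 8.26 with windows widened. They were counted as unmoved, though the counting error of a height is not the error of a median. With all samples within 0.001 of 0 left out, the median of 87C was 0.39. No ChIP library could be left out. No paired analysis was possible because values per library are missing.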
